A study of Rattus norvegicus with 20 samples.

Results

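The response of the dorsal root ganglion (DRG) to sciatic nerve injury was examined in rats fed soy oil. The 7 libraries, of 20 in the whole series, were chosen by their labels: 3 from the left DRG of rats on the soy oil diet with chronic constriction injury (SOD-CCI) and 4 from the left DRG of sham-operated rats on the same diet (SOD-CT). All 7 came from female Sprague-Dawley rats, aged 8 to 10 weeks in the study's methods, that ate a diet of the AIN-93G type with soy oil for 4 weeks before surgery. For CCI the left sciatic nerve was loosely constricted with 4 ligatures of chromic gut, and the sham operation exposed the nerve only. No transgene was involved, both groups had surgery and the same diet, and each library stands for 1 rat. The study's text places the collection 7 days after surgery, whereas its design states that the diet went on for 4 more weeks. A further SOD-CCI library had been planned and was left out before preparation because of low RNA. The spinal level of the ganglia and any processing batch are not given in the labels used here.

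The DRG holds the cell bodies of the sensory neurons, each wrapped in satellite glia, together with myelinating Schwann cells, vessels, and resident macrophages. Damage to the axon is known to switch these neurons from a transmitting to a growing state, in which transcription factors such as Atf3 and Jun are induced, growth and cytoskeletal genes follow, and the set of neuropeptides and ion channels is replaced. Injured neurons also signal to nearby macrophages and glia. Loose ligation leaves part of the axons intact, so a ganglion after CCI contains injured and uninjured neurons, and in bulk RNA fewer cells of a type and less RNA per cell cannot be told apart.

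One of the sham libraries stood apart from the others. Skeletal muscle markers, such as the myosin light chain Mylpf, took up 17.6% of the counts of SOD-CT replicate 1, against 0.0231 to 0.935% in the other 3 SOD-CT libraries and 0.0147 to 0.0253% in SOD-CCI. Neuron markers took up 1.01% there, against 3.07 to 3.59% in SOD-CCI, and 406 genes that had at least 50 counts in each of the other 6 libraries were at 0 counts. SOD-CT replicate 4 carried the most red cell transcripts, at 0.92% of its counts. The defining neuron and satellite glia markers were detected in all 7 libraries, whose total counts ranged from 22792829 to 29660266. The counts of calls are therefore given with all 7 libraries and without SOD-CT replicate 1, and so are the fold changes of the genes described in most detail. The part of muscle or blood in the results was not tested.

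**Figure D1:**
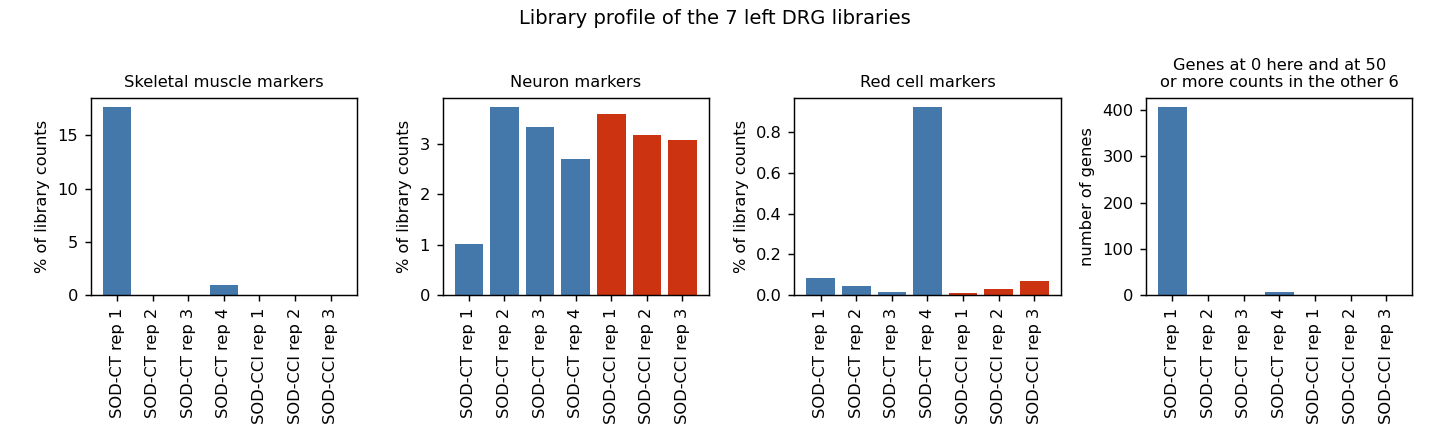
Bars give, for each of the 7 libraries (blue, SOD-CT and red, SOD-CCI), the percent of counts in skeletal muscle, neuron, and red cell markers, and the number of genes at 0 counts in that library and at 50 or more in each of the other 6. SOD-CT replicate 1 has 17.6% muscle counts and 406 such genes, and SOD-CT replicate 4 has 0.92% red cell counts.

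Genes of axon growth, neuropeptides, ion channels, and immune signaling were called between injured and sham ganglia, and with edgeR at these settings the calls needed SOD-CT replicate 1 to be left out. Without it, edgeR's quasi-likelihood test called 256 genes higher in SOD-CCI (1.72% of the 14865 tested) and 117 lower (0.787%), with the adjusted p not above 0.1 and the fold change not below 1.2. At an unadjusted p under 0.05, 1146 were higher (7.71%) and 1052 lower (7.08%). With all 7 libraries, 13425 genes passed the filter on low counts and 0 were called, with a smallest adjusted p of 0.118. There, 679 genes were higher (5.06%) and 1098 lower (8.18%) at an unadjusted p under 0.05. On the same 7 libraries, DESeq2 called 705 genes and limma-voom with sample weights called 1566. Of the 256 genes called higher without replicate 1, 221 were tested with all 7 libraries, and 220 of those had a positive log2 fold change (log2FC). Of the 117 called lower, 116 were tested with all 7 and all 116 had a negative one. Since these fits share 6 libraries, this does not count as separate support. With all 7 libraries, the groups did not overlap for 1311 of the 13425 tested genes in the higher direction (9.77%) and 1125 in the lower (8.38%). The genes named for the smallest p were chosen among those, so a gap between their groups is a description.

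The calls also leaned on single libraries among the remaining 6. Leaving out another one gave 44 calls without SOD-CCI replicate 1, 44 without SOD-CCI replicate 2, 47 without SOD-CCI replicate 3, 183 without SOD-CT replicate 2, 472 without SOD-CT replicate 3, and 985 without SOD-CT replicate 4. A fit that shared its estimate of the spread with the fish oil libraries called 0 genes, and there the unadjusted p was under 0.05 for 1204. Some fish oil libraries carried spinal cord or muscle transcripts, whose part in that spread was not tested. A correction for gene length gave 317 higher and 69 lower calls. In all, 31 of the 373 genes were called in each of the 6 fits that left out another library, of which 29 were higher and 2 lower. In the text that follows, a gene is said to have risen or fallen where it was called without SOD-CT replicate 1, and log2FC, standard error (SE), and adjusted p are from that fit unless another is named. Levels are given as CPM, counts scaled to the library size and TMM factor of each of the 7 libraries.

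**Figure D2:**
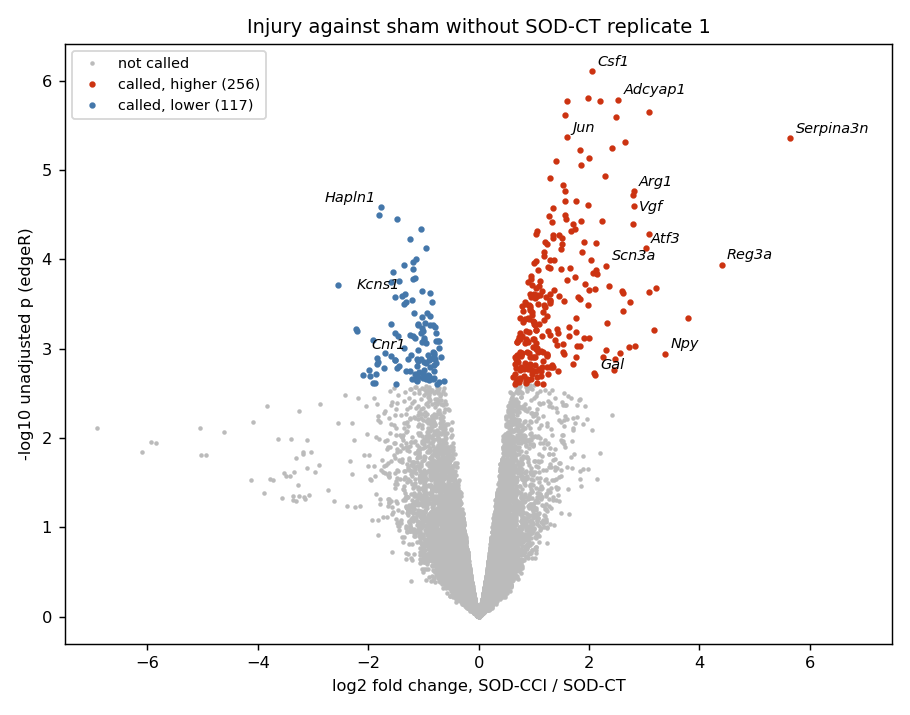
Each point is a gene tested without SOD-CT replicate 1, with its log2 fold change (SOD-CCI over SOD-CT) on the x axis and −log10 of the unadjusted p on the y axis. Red points are the 256 genes called higher and blue points the 117 called lower. Serpina3n lies farthest to the right among the called genes, with a log2FC of 5.65.

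Vgf, Serpina3n, and Scn3a, which rose, are shown with the 250 bases before their transcription start, because each holds a match to a motif of a factor family known from injured neurons. The sequences are from RefSeq (GRCr8), 5′ to 3′ on the strand of the gene. Capitals mark the CRE motif TGACGTCA in Vgf (chr12:25277021-25277270, minus strand), the STAT motif TTCNNNGAA in Serpina3n (chr6:129088142-129088391, plus strand), and the AP-1 motif TGANTCA in Scn3a (chr3:70666199-70666448, minus strand).
Vgf: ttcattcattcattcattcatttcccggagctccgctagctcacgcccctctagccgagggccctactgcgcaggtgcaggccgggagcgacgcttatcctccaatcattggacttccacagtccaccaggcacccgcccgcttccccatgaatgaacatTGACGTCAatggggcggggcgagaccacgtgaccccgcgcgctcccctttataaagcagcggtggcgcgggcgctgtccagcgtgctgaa
Serpina3n: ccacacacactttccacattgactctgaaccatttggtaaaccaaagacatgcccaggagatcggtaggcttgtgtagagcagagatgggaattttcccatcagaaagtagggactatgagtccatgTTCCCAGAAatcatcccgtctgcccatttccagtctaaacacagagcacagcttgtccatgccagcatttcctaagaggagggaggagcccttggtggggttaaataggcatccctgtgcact
Scn3a: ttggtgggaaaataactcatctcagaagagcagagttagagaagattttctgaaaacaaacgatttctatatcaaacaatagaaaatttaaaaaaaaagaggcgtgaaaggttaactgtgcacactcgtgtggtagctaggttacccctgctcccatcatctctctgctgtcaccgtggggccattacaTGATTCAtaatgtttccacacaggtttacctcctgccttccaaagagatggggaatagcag
The matches begin 90 bases before the start in Vgf, 123 in Serpina3n, and 61 in Scn3a. Over both strands, an AP-1 match was found in 14 of the 187 genes called higher that have a window (7.49%), in 4.19% of all tested genes with a window, and in 6.36% of all windows of the table. For CRE the shares were 2.67%, 2.93%, and 1.7%, and for STAT 7.49%, 5.99%, and 7.52%. Among the 89 genes called lower that have a window, the shares were 5.62% for AP-1, 2.25% for CRE, and 4.49% for STAT. A match is a description of the letters and shows no binding.

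Most transcription factors of the injury response were higher in SOD-CCI. Of 15 on the list, all 15 were tested, 13 had a positive log2FC, and 4 rose (Atf3, Sox11, Jun, and Smad1), with a median log2FC of 0.58 against −0.0031 over all genes. Atf3, a stress-induced factor used as a marker of axotomized neurons, was at 20.8, 44, 12.3, and 48.5 CPM in SOD-CT replicates 1 to 4 and at 327, 242, and 278 CPM in SOD-CCI replicates 1 to 3. The groups did not overlap, and Atf3 rose with a log2FC of 3.03 (SE 0.45, adjusted p = 0.0200). Jun, the AP-1 subunit needed for the regenerative response, was at 188, 141, 123, and 120 CPM in SOD-CT and 451, 367, and 340 CPM in SOD-CCI. It rose by 1.61 on the log2 scale (SE 0.17, adjusted p = 0.00650) and stayed called in each of the 6 fits that left out another library. Sox11, a factor of growing neurons, was at 0, 9.38, 3.42, and 2.86 CPM in SOD-CT and 38.2, 24, and 32.0 CPM in SOD-CCI, and rose with a log2FC of 2.61. Over all 7 libraries the log2FC was 3.17 for Atf3 and 1.43 for Jun, both with an adjusted p of 0.118, and Sox11 failed the filter. Smad1, which carries BMP signals to the nucleus, rose with a log2FC of 1.30. Atf4, a factor of the stress response, showed no call (log2FC −0.09), with levels of 154 to 680 CPM in SOD-CT and 179 to 206 CPM in SOD-CCI.

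**Figure D3:**
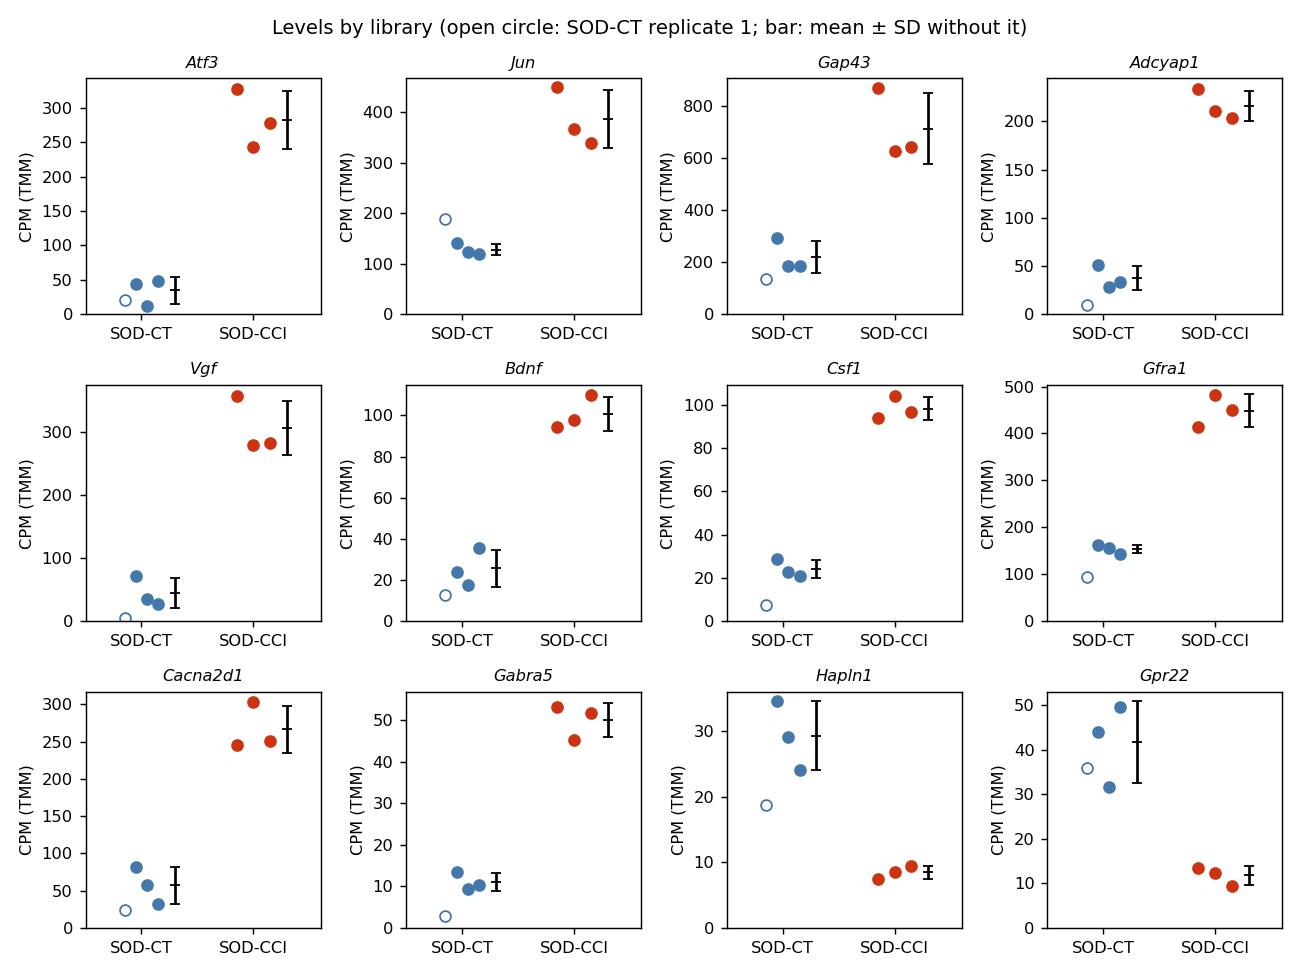
Each panel plots the level of a gene in CPM (linear axis from 0) in each SOD-CT library (blue) and SOD-CCI library (red). The open circle is SOD-CT replicate 1 and the bars are the mean ± SD of 3 libraries without it. In the 10 genes called higher, every SOD-CCI point lies above every SOD-CT point, and in Hapln1 and Gpr22 every one lies below.

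Axon growth genes gave the highest median of the lists with 8 or more tested members. Of 23 genes, 21 were tested without replicate 1, 19 had a positive log2FC, and 10 rose, with a median of 1.16 (0.98 over the 19 tested with all 7 libraries). Gap43, a growth cone protein, was at 136, 292, 184, and 185 CPM in SOD-CT and 868, 625, and 641 CPM in SOD-CCI, a rise of 1.71 on the log2 scale (SE 0.23, adjusted p = 0.0156). Flrt3, a membrane protein of axon guidance, was at 6.77, 34.2, 19.9, and 22.0 CPM in SOD-CT and 171, 136, and 119 CPM in SOD-CCI. It rose with a log2FC of 2.50 (SE 0.24, adjusted p = 0.00469). The log2FC with all 7 libraries was 1.84 for Gap43 and 2.77 for Flrt3, both with an adjusted p of 0.118. Arg1, the arginase that feeds polyamine synthesis, was at 0, 2.01, 1.30, and 2.42 CPM in SOD-CT and 14.2, 14.5, and 11.1 CPM in SOD-CCI, and rose with a log2FC of 2.81 (SE 0.35, adjusted p = 0.0123). The tubulins Tubb6 (log2FC 1.57) and Tubb2b (1.61), the tubulin-binding Stmn4 (1.75), Gadd45a (1.87), Crmp1 (1.21), Hspb1 (1.16), and Basp1 (1.01) also rose. Members of the tubulin family share sequence, so reads could be split between them. Tubb3, the neuronal tubulin, had a log2FC of 0.78 (adjusted p = 0.127) and was not called.

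Injury-induced neuropeptides were higher in 6 of the 7 tested members of a list of 8, and 3 rose. Adcyap1, which encodes PACAP, was at 9.85, 51.6, 28.3, and 33.3 CPM in SOD-CT and 233, 211, and 204 CPM in SOD-CCI, a rise with a log2FC of 2.53 (SE 0.23, adjusted p = 0.00469). Npy, a peptide nearly absent from intact sensory neurons, was at 0, 46.9, 4.56, and 61.5 CPM in SOD-CT and 387, 435, and 343 CPM in SOD-CCI. Its log2FC was 3.38 (SE 0.73, adjusted p = 0.0677), and the groups did not overlap. Gal, the peptide galanin, was at 5.61, 55.4, 10.9, and 44.7 CPM in SOD-CT and 201, 135, and 138 CPM in SOD-CCI, with a log2FC of 2.11 (SE 0.49, adjusted p = 0.0867). Adcyap1 stayed called in each of the 6 fits that left out another library, whereas Npy and Gal stayed called in 2 of them. When replicate 1 was counted, the log2FC was 2.81 for Adcyap1 (adjusted p = 0.118) and 2.44 for Gal (adjusted p = 0.312), and Npy failed the filter. Vip, another peptide of axotomized neurons, was at 0, 21.7, 0.95, and 23.1 CPM in SOD-CT and 65.1, 41.8, and 34.4 CPM in SOD-CCI and was not called (adjusted p = 0.388). Nmb, neuromedin B, fell by 1.11 on the log2 scale, and this call was lost after a correction for gene length.

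The peptides that nociceptors make without injury showed no call among 5 tested genes. Calca, which encodes CGRP, had a log2FC of 0.57 (adjusted p = 0.210), and Tac1, which encodes substance P, had 0.60 (adjusted p = 0.242). Vgf, a secreted neuropeptide precursor of sensory neurons, was at 5.61, 71.9, 35.0, and 26.4 CPM in SOD-CT and 356, 280, and 282 CPM in SOD-CCI. It rose with a log2FC of 2.80 (SE 0.35, adjusted p = 0.0127), and with all 7 libraries the log2FC was 3.14 (adjusted p = 0.182). Syt4, a vesicle protein, was the other riser among 25 tested vesicle release genes, with a log2FC of 1.33.

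Csf1, Bdnf, and Gfra1 stayed called in each of the 6 fits that left out another library. Csf1, the growth factor by which injured neurons act on macrophages and microglia, was at 7.25, 28.7, 22.7, and 20.9 CPM in SOD-CT and 93.9, 104, and 96.9 CPM in SOD-CCI. It rose with a log2FC of 2.05 (SE 0.17, adjusted p = 0.00469), and its receptor gene Csf1r had 0.59 (adjusted p = 0.331). Bdnf, a neurotrophin released onto spinal neurons, was at 12.8, 24, 17.5, and 35.5 CPM in SOD-CT and 94.3, 97.8, and 110 CPM in SOD-CCI, a rise of 1.99 on the log2 scale (SE 0.25, adjusted p = 0.0140). Gfra1, the receptor subunit for GDNF, was at 93.2, 161, 156, and 144 CPM in SOD-CT and 413, 482, and 451 CPM in SOD-CCI, with a log2FC of 1.56 (SE 0.15, adjusted p = 0.00469). Ret, the signaling partner of Gfra1, had 0.62 and was not called. The log2FC with all 7 libraries was 2.30 for Csf1 (adjusted p = 0.130), 2.16 for Bdnf, and 1.69 for Gfra1 (adjusted p = 0.118 for the last pair).

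Macrophage markers had a positive log2FC in 13 of 16 tested genes (median 0.44 without replicate 1, 0.68 with all 7 libraries), with 0 called and 4 at an unadjusted p under 0.05. Their summed share was 0.0509 to 0.0835% of counts in SOD-CCI and 0.0114 to 0.0653% in SOD-CT, where the lowest value was in replicate 1 and up to 5 of 17 markers were at 0 counts. C1qb, a complement subunit made by macrophages, was at 0, 18.4, 19.7, and 25.5 CPM in SOD-CT and 31.5, 30.9, and 32.1 CPM in SOD-CCI and was not called. All 5 tested MHC class II genes had a positive log2FC (median 0.91), none was called, and 3 had an unadjusted p under 0.05.

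Cytokine signaling genes had a median log2FC of 0.71 over 14 tested members, and 2 rose. Socs3, an inhibitor induced by STAT3, was at 2.46, 4.71, 3.26, and 4.65 CPM in SOD-CT and 17.3, 22.2, and 21.6 CPM in SOD-CCI, with a log2FC of 2.29 (SE 0.27, adjusted p = 0.0102). Its log2FC with all 7 libraries was 2.43 (adjusted p = 0.118). Tnfrsf1a, a TNF receptor, rose with a log2FC of 0.72. Stat3 itself was close to the threshold (log2FC 0.76, adjusted p = 0.102). Il6, an inflammatory cytokine also made by injured neurons, failed the filter in both fits and had 0, 12, 1, and 0 counts in SOD-CT and 132, 195, and 254 counts in SOD-CCI. With no filter and without replicate 1, its log2FC was 5.22 (adjusted p = 0.0890). Among 13 tested chemokine genes, Cxcl14 (log2FC 2.13), Cxcl13 (1.83), and Ccl2 (1.10) rose. Cxcl14 was at 11.9 CPM in SOD-CT replicate 1 and 1.73 to 3.39 CPM in the other sham libraries, against 11.2 to 12.6 CPM in SOD-CCI, so its groups overlapped once replicate 1 was counted.

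The secreted protease inhibitor Serpina3n had the highest log2FC of all calls. It was at 0, 0.72, 0.73, and 3.57 CPM in SOD-CT and 77.2, 83.6, and 88.1 CPM in SOD-CCI, and its log2FC was 5.65 (SE 0.59, adjusted p = 0.00650). It failed the filter with all 7 libraries because of the 0 in SOD-CT replicate 1, and it belongs to a family of similar genes, so its reads could be shared. Sema6a, a guidance molecule, was at 17.2, 45.1, 19.9, and 30.9 CPM in SOD-CT and 217, 192, and 187 CPM in SOD-CCI (log2FC 2.65, SE 0.28). Tnik, a kinase, had a log2FC of 2.42 (SE 0.26). These were, with all 7 libraries, 2.81 and 2.62. Reg3a, a secreted lectin, had a log2FC of 4.40, with 0 to 3.14 CPM in SOD-CT and 17.4 to 40.2 CPM in SOD-CCI. Serpina3n and Reg3a were singled out after their values were seen.

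Of 21 tested complement genes, 12 had a positive log2FC, and the median was 0.03. C3, the central complement component, was at 4.31, 18.9, 20.4, and 25.3 CPM in SOD-CT and 10.3, 35.0, and 19.7 CPM in SOD-CCI. The groups overlapped, and C3 had a log2FC of 0.03 (SE 0.39, adjusted p = 0.983) without replicate 1 and 0.33 with all 7 libraries. Cfb, complement factor B, fell by 1.59 on the log2 scale, a call that was lost after a correction for gene length.

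Ion channel genes changed in both directions. Among 11 voltage-gated sodium channel genes, the alpha subunit Scn3a (Nav1.3, a channel of developing neurons) was at 2.53, 3.42, 3.23, and 1.56 CPM in SOD-CT and 12.0, 15.6, and 12.7 CPM in SOD-CCI. It rose with a log2FC of 2.31 (SE 0.36, adjusted p = 0.0250). The accessory subunit Scn3b rose with 1.5, and Scn1a (Nav1.1) fell by 0.79 on the log2 scale, from 148 to 191 CPM in SOD-CT replicates 2 to 4 to 93.0 to 104 CPM in SOD-CCI. In SOD-CT replicate 1 Scn1a was at 58.3 CPM, below the injured libraries. Cacna2d1, the calcium channel subunit bound by gabapentin, was at 23.7, 82.0, 57.1, and 32.5 CPM in SOD-CT and 246, 303, and 252 CPM in SOD-CCI, and rose with a log2FC of 2.24 (SE 0.30, adjusted p = 0.0156). When replicate 1 was counted, the log2FC was 2.32 for Scn3a and 2.45 for Cacna2d1 (adjusted p = 0.118 for both), and −0.55 for Scn1a (adjusted p = 0.505). Cacnb1 had a log2FC of 1.12 without replicate 1 but 0.15 with it, as that library held 135 CPM of this gene, which skeletal muscle also uses.

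The list of voltage-gated potassium channel genes had a negative log2FC in 16 of 24 tested members (median −0.28), with 3 that fell and 0 that rose. Kcns1, a modifier subunit of sensory neurons, fell by 1.33 on the log2 scale (SE 0.23, adjusted p = 0.0327), Kcns3 by 1.09, and Kcnab1 by 0.89. Kcns1 was at 118, 133, and 74.9 CPM in SOD-CT replicates 2 to 4 and 51.3, 39.2, and 37.8 CPM in SOD-CCI, but at 15.4 CPM in SOD-CT replicate 1. With all 7 libraries its adjusted p was 0.462. Kcnab1 was not called after a correction for gene length. Outside this list, Kcne3 and Kcnmb4 rose, with a log2FC of 2.28 and 1.22 after that correction. Kcnip3, also outside the list, fell, and its call was lost after the correction.

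Gabra5, a subunit of the GABA-A receptor, the main inhibitory receptor on sensory neurons, was at 2.94, 13.4, 9.30, and 10.4 CPM in SOD-CT and 53.1, 45.2, and 51.7 CPM in SOD-CCI, a rise of 2.19 on the log2 scale (SE 0.20, adjusted p = 0.00469). Its log2FC with all 7 libraries was 2.46 (adjusted p = 0.137), and Gabra5 stayed called in each of the 6 fits that left out another library. The chloride transporter Slc12a2 had a log2FC of −0.47 and was not called.

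**Figure D4:**
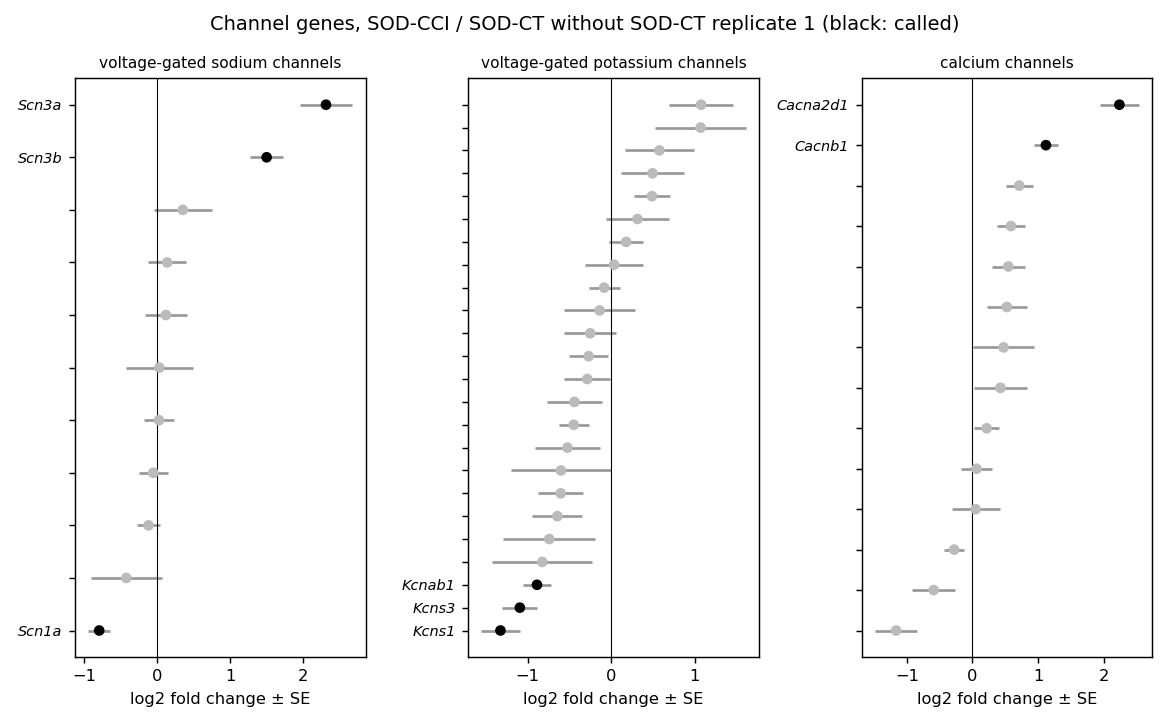
Points give the log2 fold change ± SE, SOD-CCI over SOD-CT without SOD-CT replicate 1, for each tested member of the sodium, potassium, and calcium channel lists, and black points, which carry gene names, were called. Scn3a, Scn3b, Cacna2d1, and Cacnb1 lie to the right of 0 among them, and Scn1a, Kcns1, Kcns3, and Kcnab1 to the left.

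Other receptors gave single calls. The cannabinoid receptor Cnr1, which dampens transmitter release, fell by 1.22 on the log2 scale (SE 0.26, adjusted p = 0.0687), from 33.9 to 57.0 CPM in SOD-CT to 14.9 to 25.6 CPM in SOD-CCI. It was the sole call of 12 tested opioid and cannabinoid genes. The purinergic receptors P2ry1 (log2FC −1.12) and P2rx6 (−0.77) and the AMPA receptor subunit Gria2 (−0.82) also fell, and all 3 were lost after a correction for gene length. P2rx3, the ATP receptor of nociceptors, had a log2FC of 0.30 and was not called. None of 17 tested transducer channels, 12 pacemaker and leak channels, or 16 identity transcription factors of sensory neurons was called, with medians of 0.22, 0.26, and −0.05.

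Among the other genes that fell, Hapln1 and Gpr22 stayed called in each of the 6 fits that left out another library. Hapln1, a link protein of the hyaluronan matrix, was at 18.7, 34.6, 29.1, and 24.1 CPM in SOD-CT and 7.44, 8.5, and 9.45 CPM in SOD-CCI, a fall of 1.77 on the log2 scale (SE 0.23, adjusted p = 0.0140). Gpr22, an orphan receptor, was at 35.9, 43.9, 31.6, and 49.6 CPM in SOD-CT and 13.5, 12.4, and 9.42 CPM in SOD-CCI, a fall of 1.81 (SE 0.24, adjusted p = 0.0155). Ano3, a membrane protein of sensory neurons, fell by 1.05, the calcium sensor Vsnl1 by 1.03, and Dpp10, a partner of potassium channels, by 1.18. Ssbp1, which binds mitochondrial DNA, fell by 1.34, and Smim18, Glb1l2, and Tstd3 by 1.91, 1.83, and 0.97. The calls of Ssbp1, Glb1l2, and Tstd3 were lost after a correction for gene length. Over all 7 libraries the log2FC was −1.65 for Hapln1 (adjusted p = 0.131) and −1.77 for Gpr22 (adjusted p = 0.118). None of 10 tested genes of neurofilaments and the large axon cytoskeleton was called. Of these, 7 had a positive log2FC and 3 a negative one, with a median of 0.18, and the neurofilament gene Nefl had −0.74 (adjusted p = 0.108).

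Of 9 tested Schwann cell repair genes, 8 had a positive log2FC and 2 rose, but these were Jun and Gap43, which neurons also express. Of 16 Schwann cell myelin genes, 15 had a negative log2FC (median −0.42), with 0 called and 0 at an unadjusted p under 0.05. This direction depended on the fit, as 8 of 16 were negative with limma-voom sample weights and 2 of 16 with the replicate number as a block (median 0.20), and without SOD-CT replicate 4 the median was −0.12. The block fit rests on replicates 2 and 3 of each group, as SOD-CCI replicate 1 and SOD-CT replicate 4 each stand alone in a block. Satellite glia markers had a median of 0.06 over 13 genes and 0 calls. Cd44, a hyaluronan receptor on the list of satellite glia activation genes, rose with a log2FC of 1.35 (SE 0.17, adjusted p = 0.0140), and Vim on the same list had 0.26 and was not called. Fibroblast markers were lower in 5 of 5 tested genes and endothelial and mural markers in 12 of 14, with 0 calls in either list.

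Lipid and redox genes gave few calls. Cholesterol synthesis genes had a positive log2FC in 17 of 22 tested members, with a median of 0.24. Acsl4, which activates long polyunsaturated fatty acids, rose with 1.10 (adjusted p = 0.0311), and its level in SOD-CT replicate 1, 115 CPM, lay within the SOD-CCI range of 109 to 148 CPM. Of 33 selenoprotein and antioxidant genes, 23 had a negative log2FC (median −0.26), 3 rose, and 0 fell. After a correction for gene length 19 were negative (median −0.06), and without SOD-CT replicate 4 18 were (median −0.07). The risers were Txnrd1 (log2FC 0.92), Srxn1 (1.01), and the mitochondrial Sod2 (0.85). Gpx4, the selenoenzyme that reduces lipid peroxides, was at 1624, 708, 590, and 841 CPM in SOD-CT and 476, 354, and 436 CPM in SOD-CCI. Its log2FC was −0.74 (SE 0.19, adjusted p = 0.119), and it was not called.

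Ribosomal protein and oxidative phosphorylation genes were lower across the lists, and a correction for gene length moved both medians close to 0. Without replicate 1, 68 of 76 ribosomal protein genes and 73 of 78 oxidative phosphorylation genes had a negative log2FC, with medians of −0.33 and −0.29. With all 7 libraries the medians were −0.75 and −1.19. Of the oxidative phosphorylation genes, 1 fell (Ndufa2, a subunit of complex I, log2FC −1.25), and of the ribosomal protein genes 0 were called. Over 10 groups of genes by length, the median log2FC without replicate 1 went from −0.26 in the shortest to 0.07 in the longest. After the trend of each library with gene length had been removed, 36 of 76 ribosomal protein and 42 of 78 oxidative phosphorylation genes were negative, the medians were 0.05 and −0.03, and Ndufa2 was not called. Both lists hold short genes, with median lengths of 603 and 689.5 bases, against 2349 over all genes tested without replicate 1. Such a correction also takes out a fall shared by short genes, whatever its source. The source of the fall was not tested. The correction moved the median of all genes to 0.10. Of the 373 calls, 304 remained.

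**Figure D5:**
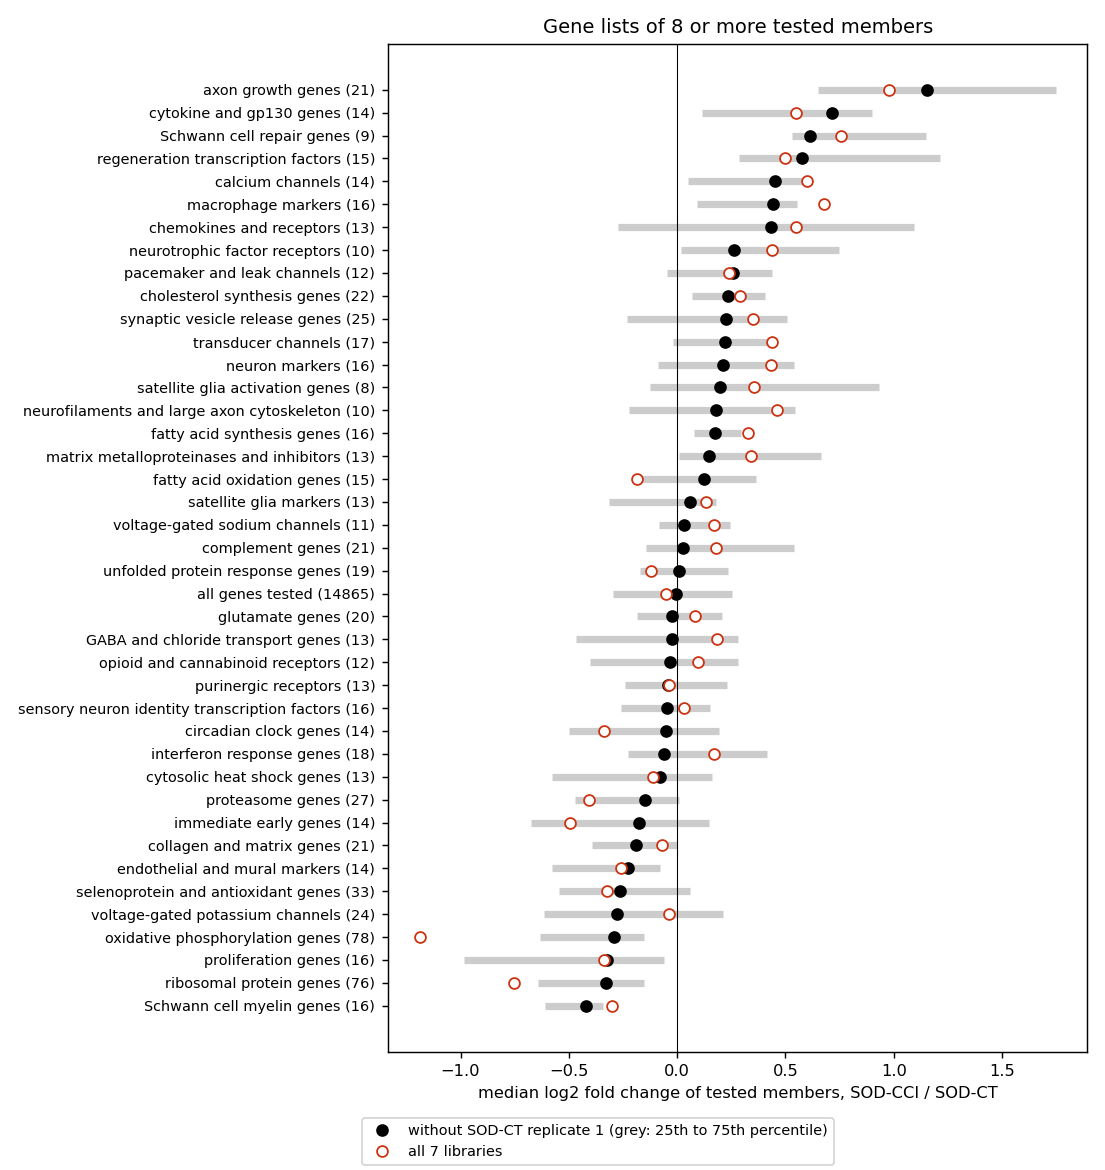
Points give the median log2 fold change of the tested members of each gene list of 8 or more members (number tested in parentheses), without SOD-CT replicate 1 (black, with grey bars from the 25th to the 75th percentile) and with all 7 libraries (open red). Axon growth genes lie highest with a median of 1.16, and oxidative phosphorylation genes move from −0.29 to −1.19 when replicate 1 is counted.

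Further genes of the injury response failed the filter with all 7 libraries, and SOD-CT replicate 1 held 0 counts of each. Sprr1a, a small proline-rich protein of regenerating neurons, had 0, 31, 0, and 42 counts in SOD-CT and 332, 315, and 127 in SOD-CCI, and failed the filter also without replicate 1. Ecel1, a protease of injured neurons, had 0, 413, 94, and 81 counts against 1031, 927, and 843, and was not called without replicate 1 (adjusted p = 0.164). Mmp19, a matrix metalloproteinase, had 0, 125, 221, and 86 counts against 526, 761, and 607, and rose with a log2FC of 2.04. The range of SOD-CCI counts lay above that of SOD-CT for each of these 3 genes. They were picked from list members that failed the filter and had at least 10 counts in each SOD-CCI library. The gap between their groups is therefore a description. For other such list members the ranges overlapped, as for Ccr2 (0 to 57 counts in SOD-CT and 13 to 106 in SOD-CCI).

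Whether the response depended on diet was tested as a diet by injury interaction over the 14 left libraries. Of 14484 genes, 0 were called. The unadjusted p was under 0.05 for 626 genes with a positive interaction (4.32%) and 99 with a negative one (0.684%). Of the 23 named genes tested, Scn3a had the smallest unadjusted p, with a log2FC of 2.33 on soy oil and 0.20 on fish oil and an interaction of −2.13 (SE 0.57, adjusted p = 0.894). Most of these genes, Scn3a among them, were chosen for a small p in the soy oil comparison, whose values also enter the interaction. That choice favors a larger change on soy oil, so the gap between the diets is a description. In the deposited FPKM, Scn3a was at 0.394 ± 0.121 in SOD-CT (SD, n = 4) and 1.95 ± 0.277 in SOD-CCI (SD, n = 3), against 1.18 ± 0.313 in fish oil sham rats (SD, n = 3) and 1.36 ± 0.644 in fish oil injured rats (SD, n = 4), and each fish oil sham library lay above each SOD-CT library. Among the injured fish oil libraries, replicate 1 had 2.13 FPKM of Atf3 against 136 to 330 in the other 3. Without it, 0 genes were called and the Scn3a interaction was −1.92 (adjusted p = 0.693). Spinal cord glia markers took up 1.041% of the counts of that library and 1.204% of fish oil sham replicate 1. In the other left libraries they took up 0.05967 to 0.1744%. Fish oil sham replicate 1 had 1.531 FPKM of Scn3a, the highest of its group, and without it the interaction was −1.901 (adjusted p = 0.895). Fish oil sham replicate 2 had 3.919% of its counts in skeletal muscle markers. The part of spinal cord or muscle transcripts in the diet comparison was not tested. For Atf3, the right, uninjured DRG of 3 SOD-CCI rats was at 6.42 ± 3.03 FPKM (SD, n = 3), and the left at 187 ± 28.6 FPKM (SD, n = 3).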

How the data were processed

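Poly-A RNA of rat DRG was sequenced. The deposited counts are whole fragments per gene, made by the authors with fastp, HISAT2, and featureCounts 1.5.0-p3, and the authors scaled them to the deposited FPKM. The genome build, strand setting, and treatment of multiple alignments are not given in the sources used here, so antisense, overlapping, and repeated genes are uncertain. All columns had a sample (0 unmapped).

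Genes that reached 10 counts in 90% or more of the fitted libraries (7 of 7) were tested with edgeR 4.0.16 (quasi-likelihood F test, TMM, two-sided, R 4.3.3) and Benjamini-Hochberg adjustment. Genes were called with the adjusted p not above 0.1 and the fold change not below 1.2. CPM used TMM library sizes. DESeq2 1.42.0, limma 3.58.1, other filters, scalings, a gene length correction, a replicate block, and leaving out each library were alternatives. The fits were tested on simulated data, in which all libraries shared the same mean profile apart from set fold changes. That test does not cover a library with muscle transcripts, genes at 0 counts, or its own trend with gene length. Intervals and p-values cover the spread among these rats.

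Lists hold 801 genes, of which 10 were not found. Named genes were the 10 higher and 10 lower of smallest unadjusted p with all 7 libraries (same sign and unadjusted p under 0.05 without SOD-CT replicate 1, no overlap), up to 4 called or 2 most abundant members per list, Arg1, C3, and Adcyap1, and list members that the filter removed. The removed members were named only if they had at least 10 counts in each SOD-CCI library. Since 0 genes were called with all 7, list members called without replicate 1 were also named, a choice made after their values were seen. The groups, members, and lists were chosen with earlier results of these data known, and lists were given no test. The ribosomal protein and oxidative phosphorylation lists were set by symbol. Promoter windows are from RefSeq (GRCr8), and 70.7% of the gene IDs were in its table. Tissue, diet, and surgery details follow the labels and the study's methods. Some items are not reported here.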

Additional observations from a re-analysis of the deposited data

Results flagged for a closer look

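In 36 groups of 4 sham values that were examined for a library far from the others, 4 stood out. The rule flags about 1 in 20 where values are independent and normally spread. These 4 came from SOD-CT replicates 1 and 4 only, and the spread of the shares was not examined, so that rate may not hold here. SOD-CT replicate 1 had 17.6% of its counts in skeletal muscle markers, against 0.0231 to 0.935% in the other 3 sham libraries, and 0.414% in satellite glia markers, against 0.983 to 1.01%. SOD-CT replicate 4 had 0.92% of its counts in red cell markers, against 0.0138 to 0.0835%, and 0.0836% in neutrophil markers, against 0.00201 to 0.0123%. Their part in the comparison of SOD-CCI with SOD-CT was not tested.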

How the results depend on the processing

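The count of calls depended on the processing, and the cause was not tested. With all 7 libraries, 0 genes were called by edgeR (1777 at an unadjusted p under 0.05), 705 by DESeq2, 1566 by limma-voom with sample weights, 4 after gene length correction, and 0 to 373 when 1 library was left out (373 without SOD-CT replicate 1, 1 without SOD-CT replicate 2, and 0 without each of the others). Without SOD-CT replicate 1, where the alternatives were added after seeing the data, the count was 373, against 1179 by DESeq2, 1537 by limma-voom, 699 with no filter, and 0 when the spread was shared with the fish oil libraries, and it ranged from 44 to 985 when another library was left out. RLE scaling gave 362, filterByExpr 275, robust dispersion 410, and gene length correction 386 calls. DESeq2 on 7 libraries shared 278 of the 373 calls (74.5% of these and 39.4% of its own). Sham and injured libraries came from different rats, so the replicate number was not a pairing by rat. Same-numbered libraries had correlations of 0.049, 0.043, and −0.078, which by themselves cannot show an absence of pairing. With the replicate number as a block, 0 genes were called over 7 libraries and 1172 without SOD-CT replicate 1. In the latter fit, SOD-CCI replicate 1 and SOD-CT replicate 4 each stand alone in a block, so they do not enter the comparison of the groups. The diet by injury interaction called 0 genes in all 14 fits that left out a library. Of the named genes' values, 307 kept direction and side of the threshold, 66 passed the threshold where the 7-library fit did not, and 1 reversed: with all 7 libraries C3 had a log2FC of 0.33, which ranged from −0.21 (without SOD-CCI replicate 2) to 0.66 (without SOD-CCI replicate 1) when 1 library was left out and reached 1.18 with the replicate block and gene length correction. Without SOD-CT replicate 1, the median of ribosomal protein genes ranged from −0.49 to 0.05 over 15 settings and that of Schwann cell myelin genes from −0.82 to 0.20.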

Other observations

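Genes on none of the lists also rose or fell without SOD-CT replicate 1, and those named here were chosen after their values were seen. Sbno2, a transcriptional regulator downstream of cytokine signals, was at 0.55, 24.7, 18.6, and 17.4 CPM in SOD-CT and 78.2, 83.7, and 76.2 CPM in SOD-CCI, with a log2FC of 1.99 (SE 0.18, adjusted p = 0.00469). Tph2, the neuronal enzyme of serotonin synthesis, was at 28.0, 15.7, 13.2, and 22.2 CPM in SOD-CT and 64.7, 71.3, and 65.8 CPM in SOD-CCI, with a log2FC of 2.0 (SE 0.22, adjusted p = 0.00775). Both stayed called in each of the 6 fits that left out another library. Abca1, which exports cholesterol from cells, was at 15.3 to 49.3 CPM in SOD-CT and 126 to 171 CPM in SOD-CCI (log2FC 1.99). Nos1, the neuronal nitric oxide synthase, had a log2FC of 1.77. Car2, a carbonic anhydrase of large sensory neurons and red cells, was at 134, 105, 89.7, and 313 CPM in SOD-CT and 35.0, 37.3, and 35.4 CPM in SOD-CCI, and its log2FC was −2.22 (adjusted p = 0.0511). Its level was highest in SOD-CT replicate 4, the library with the most red cell transcripts, whose part in this result was not tested.

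Rhoq, a small GTPase, had a log2FC of 1.53 without SOD-CT replicate 1 and 0.89 with all 7 libraries. It was at 371 CPM in SOD-CT replicate 1, above each SOD-CCI library (319 to 355 CPM), and at 93.1 to 139 CPM in the other 3 sham libraries. Ddit4l was at 162 CPM in SOD-CT replicate 1, 4.18 to 6.62 CPM in the other sham libraries, and 0.75 to 0.96 CPM in SOD-CCI.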
